A study of Mus musculus with 2 samples.

Results

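Transcripts of 6 genes that mark the delta, epsilon and PP cell lineages of the pancreatic islet were followed: Sst, Hhex, Ghrl, Ppy, Pyy and Npy. They were chosen by name, and all 6 were found among the 23284 gene symbols of the deposited count files. The RNA came from 2 samples of 1 group: GFP-positive pancreatic cells sorted from e15.5 mouse embryos with the NGN3-EGFP genotype, strain mixed, C57BL6. Per the title of the series, the cells are endocrine progenitors. The labels do not say how the NGN3-EGFP allele was made, how many embryos went into each sample or whether the litters differed. The spread between the samples may therefore be technical, biological or both, and these cannot be told apart. There is no second condition, and each value below is a level in these cells or a difference between the 2 libraries, called replicate 1 and replicate 2.

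Islet endocrine cells arise in the embryo from progenitors that switch on Neurog3 and then take one of several hormone fates. Delta cells secrete somatostatin (Sst), which restrains the release of other islet hormones, and they depend on the homeobox factor Hhex. Epsilon cells make ghrelin (Ghrl) and are most common around birth. PP cells make pancreatic polypeptide (Ppy), a member with peptide YY (Pyy) and neuropeptide Y (Npy) of one peptide family that acts on shared Y receptors. Pyy is also known to be made by several types of islet cell early in development.

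All 6 genes were detected in both libraries, at 1 CPM (count per 1000000 counted reads) or more. The order of levels, corrected for exon length, was Pyy, Ghrl, Sst, Ppy, Npy and Hhex in both. Pyy was the fourth most abundant of 22821 genes with a known exon length, while the delta cell factor Hhex was the lowest of the 6. Sst and Ghrl were higher in replicate 2, Pyy and Hhex were higher in replicate 1, and Ppy and Npy did not pass the test between the libraries. The libraries held 12495143 and 12043734 counted reads, with 11712 and 12017 genes at 1 CPM or more, and differed widely for the same label: the common dispersion of edgeR corresponds to a coefficient of variation of 0.934 between them.

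Sst encodes somatostatin, the delta cell hormone. It had 7592 reads in replicate 1 and 9375 in replicate 2, or 610 CPM (597 to 624) and 775 CPM (759 to 791), with a mean of 693 ± 116 CPM (SD, n = 2). The ranges in parentheses are exact 95% Clopper-Pearson intervals, which cover counting error only. They did not overlap between the libraries, and replicate 2 was the higher by 1.27-fold (95% interval 1.23 to 1.31). Per kb of exon the Sst level was 846 and 1075 CPM per kb, rank 26 and rank 22 of all genes with a length. In a bulk library, fewer cells of a type and less RNA per cell cannot be told apart, so these levels count neither delta cells nor the transcripts in one.

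The start region of Sst is shown because it holds the cyclic AMP response element, the palindrome through which this hormone gene is classically known to be controlled. The sequences below are from RefSeq on GRCm38.p6, whereas the reads were mapped to mm9. Each runs 5′ to 3′ on the gene's own minus strand over the 120 bases before an annotated start. Capitals mark the cyclic AMP response element, TGACGTCA, in Sst and TATAAA in Ppy. The neighbours Ppy and Pyy are shown for the contrast in level described further on.
Sst, chr16:23890845-23890964: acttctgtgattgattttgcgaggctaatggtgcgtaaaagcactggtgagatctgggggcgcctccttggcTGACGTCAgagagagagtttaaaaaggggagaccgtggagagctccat
Ppy, chr11:102101320-102101439: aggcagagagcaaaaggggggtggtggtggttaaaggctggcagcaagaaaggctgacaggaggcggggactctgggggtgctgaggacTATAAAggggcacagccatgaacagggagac
Pyy, chr11:102107833-102107952: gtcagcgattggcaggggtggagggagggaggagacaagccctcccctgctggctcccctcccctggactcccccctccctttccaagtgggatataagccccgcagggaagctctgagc

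Both motifs and the E-box letters CAGATG and CANNTG (N is any base) were searched on both strands in the 250 bases before each of 10 annotated starts of the 6 genes. The windows of the 2 Pyy starts overlap, as do some of the 4 Ghrl windows. TGACGTCA was found at 1 start, that of Sst, where it begins 48 bases upstream. Of 32851 annotated mouse starts, 1.55% held it in a window of the same length. TATAAA was found at 1 of the 10 starts, that of Ppy, where it begins 31 bases upstream, and 12.4% of all starts held it. CAGATG, an E-box of the kind bound by Neurogenin and NeuroD factors, was found at 0 of the 10 and at 14.4% of all starts. The general E-box CANNTG was found at 5 of the 10, in Sst, Ghrl and Pyy, and at 66.2% of all starts. The TGACGTCA and TATAAA matches do not overlap one another. Only exact matches to the stated letters were counted, so a start without one may still hold a variant, such as a TATA-like stretch. All matches describe the letters in these windows and say nothing of binding in these cells.

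Hhex encodes the homeobox transcription factor of the delta lineage, which also acts in early endoderm, liver and endothelium. It had 1562 reads in replicate 1 and 1054 in replicate 2, or 126 CPM (119 to 132) and 87.1 CPM (81.9 to 92.6), with a mean of 106 ± 27.2 CPM (SD, n = 2). Replicate 1 was the higher by 1.44-fold, which was the widest gap between the libraries among the 6 genes. Sst was higher in the other library, so the ratio of Sst to Hhex per kb of exon was 12.9 in replicate 1 and 23.7 in replicate 2.

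Markers of the other cell types in which Hhex is known were scarce. Of 9 endothelial genes, 2 reached 1 CPM in replicate 1 and 3 in replicate 2, and the 9 summed to 29.4 and 14.1 CPM. Cdh5, which encodes VE-cadherin, had 194 reads in replicate 1 and 2 in replicate 2. Eng, the endoglin gene, had 168 and 23, and Kdr, a VEGF receptor gene, 1 and 0. Sox17, an endothelial and endodermal factor, had 0 reads in replicate 1 and 80 in replicate 2, Esam, an adhesion molecule gene, 0 and 54, and Pecam1 (CD31) 1 and 8. Of the 4 endothelial genes tested, 2 were called higher in each library. Of 6 liver genes 2 reached 1 CPM in each library, with a sum of 6.83 and 9.67 CPM, and Alb (albumin), Apoa1 and Apob had no read in either. The endothelial sum, carried in replicate 1 by Cdh5 and Eng, was higher there, as Hhex was, while Sox17 and Esam were higher in replicate 2. The part of such cells in the Hhex level was not tested.

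Ghrl encodes preproghrelin, whose acylated product stimulates appetite and growth hormone release. It had 17667 reads in replicate 1 and 21092 in replicate 2, or 1420 CPM (1399 to 1441) and 1744 CPM (1720 to 1767), with a mean of 1582 ± 229 CPM (SD, n = 2). Replicate 2 was the higher by 1.23-fold, in the same direction as Sst. The ratio of Ghrl to Sst per kb of exon therefore differed little between the libraries, at 1.71 and 1.65. The annotation places the genes Gm26982 and Gm44033 on the opposite strand across Ghrl. No strand setting is stated for the counts, so reads of these genes cannot be told apart from reads of Ghrl.

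The NPY family was dominated by Pyy. Pyy had 35717 reads in replicate 1 and 30077 in replicate 2, or 2871 CPM (2841 to 2901) and 2486 CPM (2458 to 2515), with a mean of 2679 ± 272 CPM (SD, n = 2). Replicate 1 was the higher by 1.15-fold. Ppy, the hormone gene that names the PP cell, had 1987 and 1909 reads, or 160 CPM (153 to 167) and 158 CPM (151 to 165). Npy, best known as a peptide of neurons, had 875 and 877 reads, or 70.3 CPM (65.8 to 75.2) and 72.5 CPM (67.8 to 77.5). For Ppy and for Npy the intervals of the 2 libraries overlapped.

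Of the reads of these 3 family genes, Pyy took 92.6% (92.3 to 92.8) in replicate 1 and 91.5% (91.2 to 91.8) in replicate 2, with exact 95% Clopper-Pearson intervals. Ppy took 5.15% (4.93 to 5.38) and 5.81% (5.56 to 6.07), and Npy 2.27% (2.12 to 2.42) and 2.67% (2.50 to 2.85). The split held in both libraries and also per kb of exon, where Pyy took 91.2% and 90.0%. Pyy and Ppy are neighbours on one chromosome with no annotated coding gene between them, yet the Pyy level per kb of exon was 14.4-fold above that of Ppy in replicate 1 and 12.6-fold in replicate 2. Ppy, Pyy, Npy and Sst share no 25-base word with another annotated gene, while for Ghrl 86.0% and for Hhex 98.3% of such words occur in no other gene.

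**Figure D1:**
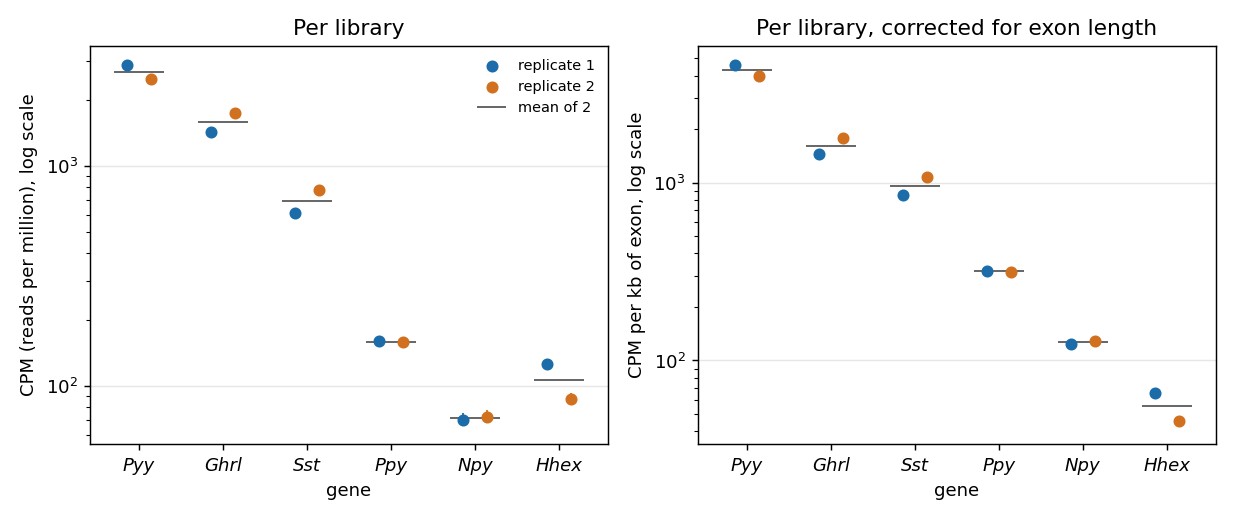
Level of each of the 6 genes in replicate 1 (blue) and replicate 2 (orange), in CPM on the left and in CPM per kb of exon on the right, both on log axes; grey bars are the means of the 2 libraries, and the counting intervals are mostly hidden by the points. Pyy is highest on both scales, and Hhex lies above Npy in CPM but below it per kb of exon.

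In the order per kb of exon, each gene lay above the next in both libraries, and the ranges of neighbours did not overlap. The ratio of Pyy to Ghrl was 3.18 in replicate 1 and 2.25 in replicate 2. Ghrl was above Sst by 1.71-fold and 1.65-fold, the closest pair. Sst was above Ppy by 2.65-fold and 3.41-fold, Ppy above Npy by 2.57-fold and 2.46-fold, and Npy above Hhex by 1.90-fold and 2.82-fold. The last step depends on length, since the Hhex exons are 1918 bases long and those of Npy 566: without the length correction Hhex was the higher, with a mean log2 ratio of Npy to Hhex of -0.55. An exact permutation test over 2 paired libraries cannot go below p = 0.5, so the order is a description.

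The difference between the libraries was tested with a two-sided exact binomial test on reads, with Benjamini-Hochberg adjustment over 13416 genes of at least 10 reads; it compares these libraries, not conditions. It called 4 of the 6 genes, against 85.8% of all genes tested. Sst and Ghrl were called higher in replicate 2, as were 44.1% of all genes, and Pyy and Hhex higher in replicate 1, as were 41.7%. A share near that of all genes is no result about these 6. For Sst the adjusted p of the exact test was 1.59e-53, for Ghrl 2.91e-89, for Pyy 9.86e-75 and for Hhex 6.7e-20. Ppy had a log2 ratio of replicate 2 over replicate 1 of -0.02 (adjusted p = 0.734 by the exact test) and Npy one of 0.04 (adjusted p = 0.561). The 95% interval of the fold was 0.927 to 1.05 for Ppy and 0.938 to 1.13 for Npy.

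None of the 6 genes was over 2-fold apart between the libraries, against 48.2% of all genes tested. Their median absolute log2 ratio was 0.25 and that of all genes tested 0.95. Scarce genes varied most, and each of the 6 had a mean above 70 CPM, so the gap is also given by level. Among 58 genes from 1000 CPM upward the median absolute log2 ratio was 0.14, and Ghrl at 0.30 and Pyy at -0.21 lay further from 0 than that. Among 2269 genes from 100 to 1000 CPM it was 0.39. There Sst at 0.34 and Ppy at -0.02 lay nearer to 0, and Hhex at -0.53 further. Among 6762 genes from 10 to 100 CPM it was 0.84, and Npy at 0.04 lay far below it.

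**Figure D2:**
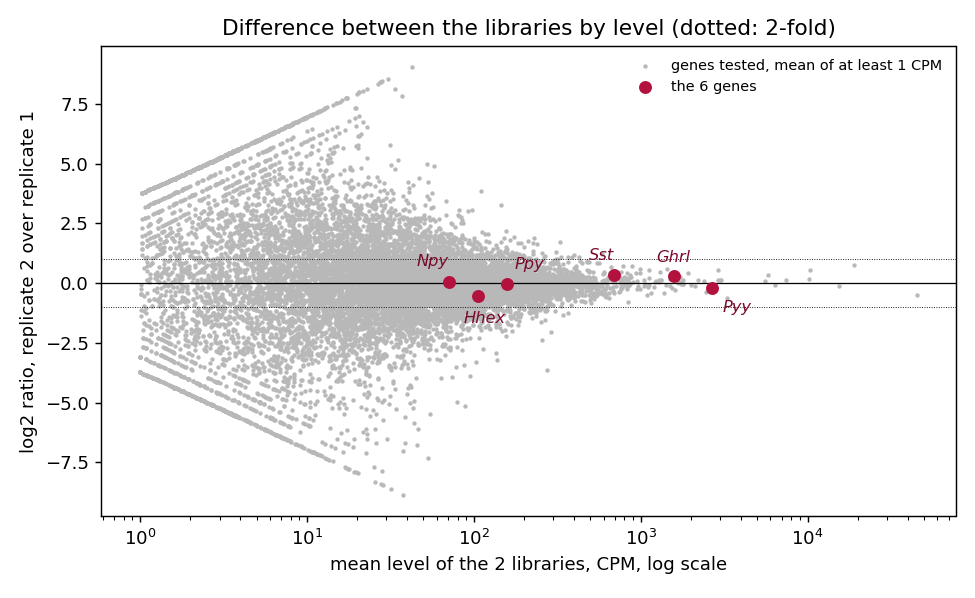
Log2 ratio of replicate 2 over replicate 1 against the mean level in CPM (log axis) for the genes tested with a mean of at least 1 CPM (grey) and the 6 genes (red); dotted lines mark 2-fold. All 6 lie between the dotted lines, Hhex lowest at -0.53 and Sst highest at 0.34.

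Together the 5 peptide genes held 0.511% of all counted reads in replicate 1 and 0.526% in replicate 2. Of the reads of 18 hormone genes, which numbered 453554 and 630561, they took 14.1% and 10.04%. Pyy held 7.87% of hormone reads in replicate 1 and 4.77% in replicate 2, and Ghrl 3.90% and 3.34%. Sst held 1.67% and 1.49%, Ppy 0.438% and 0.303% and Npy 0.193% and 0.139%. The exact Clopper-Pearson intervals of the shares did not overlap between the libraries for any of the 5. Gcg, the proglucagon gene, took 38.6% of hormone reads in replicate 1 and 46.2% in replicate 2. The shares are parts of one sum and do not vary independently. Sst and Ghrl had lower shares in replicate 2 although their CPM were higher there.

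**Figure D3:**
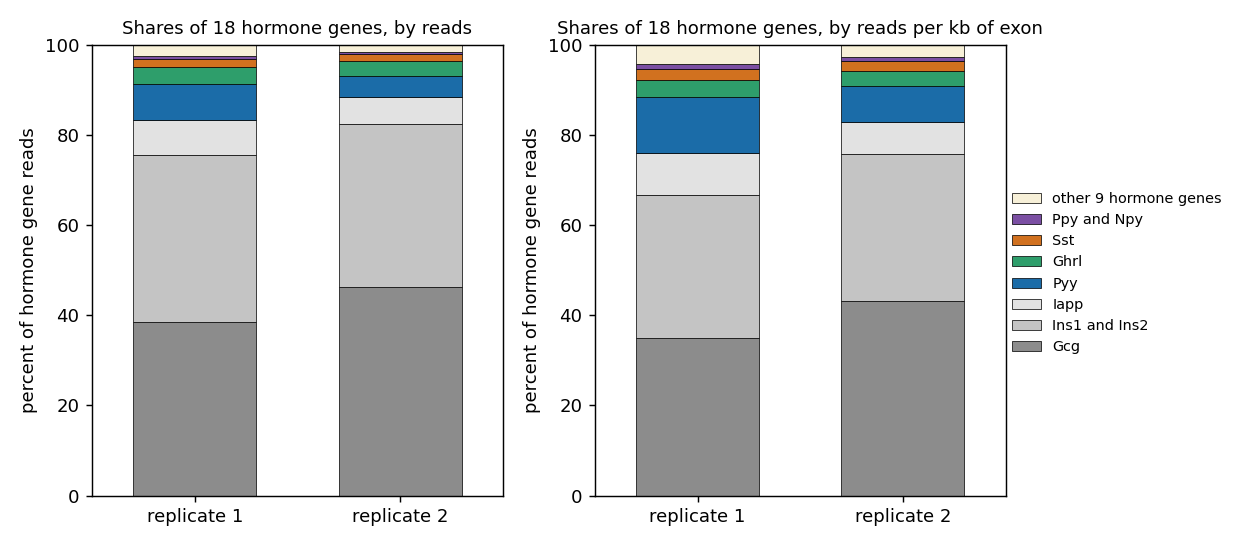
Stacked shares of 18 hormone genes in each library, in percent of their reads (left) and of their reads per kb of exon (right). Gcg and the insulin genes fill most of each bar, and the coloured segments of Pyy, Ghrl, Sst, Ppy and Npy together take 14.1% and 10.04% by reads and 19.8% and 14.2% per kb of exon.

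Gcg and Ins1 were above all 5 peptide genes, while per kb of exon Pyy was at the level of Ins2 and Iapp. Per kb of exon the ratio of Gcg to Pyy was 2.81 in replicate 1 and 5.56 in replicate 2, that to Ghrl 8.95 and 12.5, that to Sst 15.3 and 20.6 and that to Ppy 40.4 and 70.1. The insulin gene Ins1 was above Pyy as well, with a ratio of 1.72 and 2.93. Ins2, the other insulin gene, was at 3891 and 4924 CPM per kb against 4594 and 3978 for Pyy, so per kb the order of this pair changed between the libraries. Without the length correction Ins2 was above Pyy in both, at 5104 and 6461 CPM against 2871 and 2486. Per kb, Pyy lay above Iapp, the islet amyloid polypeptide gene, in both, with a ratio of Iapp to Pyy of 0.738 and 0.936. In CPM that ratio was 0.991 and 1.26, so these orders depend on length. Cort, which encodes cortistatin, the relative of somatostatin, had no read in either library. By the limit of 3 counts, which covers counting error only, this allows up to 0.241 and 0.248 CPM.

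Among transcription factors that direct islet lineages, Hhex lay below the middle by its mean level per kb of exon, and near the middle in replicate 1. Of 20 such regulators, 13 had a higher mean per kb of exon than Hhex and 7 a lower one; in replicate 1 alone 11 were higher and in replicate 2 alone 13. Neurog3, which commits progenitors to an endocrine fate, was at 7.30-fold and 7.88-fold the Hhex level. Insm1, a zinc finger factor of endocrine differentiation, was at 332 and 281 CPM per kb, and Nkx2-2, a homeobox factor of several islet lineages, at 314 and 235. Isl1, needed for delta and PP cells among others, was 3.14-fold and 4.38-fold above Hhex. Pax4, which favours beta and delta fates, was at 111 and 154 CPM per kb. Of the 20 regulators 19 reached 1 CPM in both libraries, the exception being Mafa at 2.81 and 0.66 CPM. The binomial test called 10 of them higher in replicate 2 and 9 in replicate 1, or 19 of 20 against 85.8% of all genes tested. Their median log2 ratio was 0.03, and that of all genes tested 0.04.

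Of 5 genes linked to delta cells, 2 reached 1 CPM in both libraries. Rbp4, which encodes the plasma carrier of retinol, was at 1186 and 1121 CPM per kb of exon, near the Sst level of 846 and 1075. Edn3, the endothelin 3 gene, was at 30.2 and 20.7 CPM per kb. Both were called higher in replicate 1. Ghsr (the ghrelin receptor), Lepr (the leptin receptor) and Cckbr (a receptor of cholecystokinin and gastrin) had no read in either library.

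Genes of peptide processing, which encode enzymes that mature or trim these peptides and proteins that assist or inhibit them, were detected throughout, with 9 of 9 at 1 CPM or more in both libraries. The exact binomial test called 8 of them higher in replicate 2, against 44.1% of all genes tested, and 1 higher in replicate 1, against 41.7%. The list had a median log2 ratio of 0.66 against 0.04 over all genes tested. Cpe, the carboxypeptidase that trims basic residues after cleavage, was at 1116 and 1624 CPM per kb of exon. Pcsk2, a prohormone convertase, was at 142 and 234 CPM per kb, and its chaperone gene Scg5 at 54.6 and 110. Pam, which amidates the C-terminus that the NPY family peptides need for activity, was at 84.3 and 104 CPM per kb.

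Mboat4, the acyltransferase that attaches the fatty acid to ghrelin, had 605 reads in replicate 1 and 515 in replicate 2, or 26.5 and 23.2 CPM per kb, and was the 1 gene of this list called higher in replicate 1 (log2 ratio -0.19, adjusted p = 0.0319 by the exact binomial test). Ghrl itself was called higher in replicate 2. Dpp4, the peptidase that shortens NPY and PYY at the N-terminus and so changes their receptor preference, had 124 reads in replicate 1 and 787 in replicate 2. Its level was 9.97 and 65.1 CPM, a log2 ratio of 2.69 (adjusted p = 2.44e-121 by the exact binomial test).

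Transcripts of the receptors for these peptides were scarce. Of 11 receptor genes, 2 reached 1 CPM in both libraries, Sstr3 and Sstr1, both of the somatostatin receptor family. Sstr3 had 453 and 611 reads, or 36.4 and 50.5 CPM, and Sstr1 18 and 38 reads. Sstr2 had 2 reads in replicate 1 and 85 in replicate 2, and Npy1r, a receptor of NPY and PYY, had 0 and 154. These 4 genes passed the binomial test and were higher in replicate 2, as were 44.1% of all genes tested. The others had fewer than 10 reads and were not tested. Sstr4, Sstr5, Ghsr, Npy6r and Ppyr1 (the older symbol of Npy4r, the receptor that prefers pancreatic polypeptide) had no read in either library. Npy2r and Npy5r had no read in replicate 1 and 3 and 4 reads in replicate 2. By counting error alone, a count of 0 at this depth allows up to 0.241 CPM in replicate 1 and 0.248 in replicate 2. That limit leaves out the wider spread between the libraries: Npy1r had 0 reads in replicate 1 and was at 12.7 CPM in replicate 2. The transcripts with no read were therefore not detected rather than shown to be absent.

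**Figure D4:**
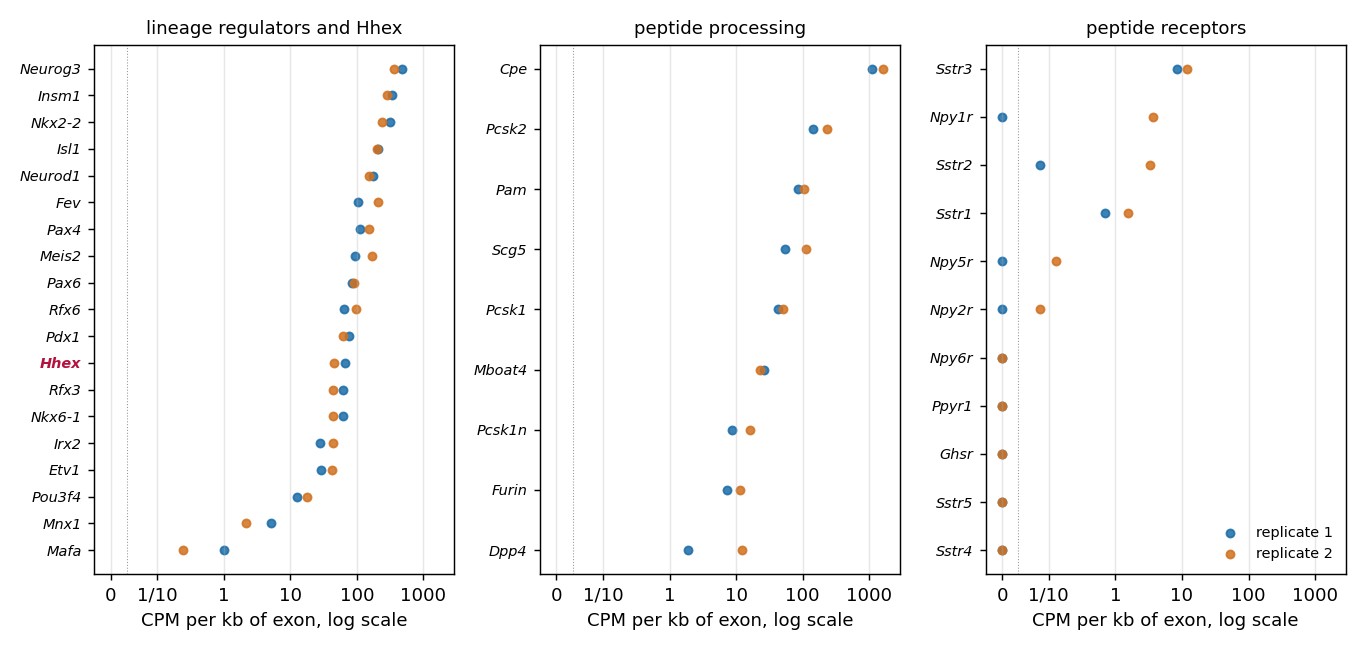
Level per kb of exon (log axis, with 0 drawn at the left of the dotted line) in replicate 1 (blue) and replicate 2 (orange) of 18 of the 20 lineage regulators with Hhex in red, the peptide processing genes and the peptide receptors, each sorted by mean. By its mean, Hhex sits below the middle of the regulators, the processing genes reach from Dpp4 to Cpe, and 5 receptors are at 0 in both libraries.

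For each of the 6 genes the 2 genes of the related lists nearest in level were found, by the Euclidean distance of log2 CPM per kb over the 2 libraries. With 2 libraries this compares little more than the level and 1 ratio. Hhex was nearest to Rfx3 (distance 0.098) and Nkx6-1 (0.100), which were both higher in replicate 1, at 61.6 and 44.0 and at 61.5 and 44.1 CPM per kb. Sst was nearest to Gast (0.491) and Rbp4 (0.491), Ghrl to Cpe (0.392) and Gast (0.690), and Pyy to Ins2 (0.390) and Iapp (0.449). Ppy was nearest to Insm1 (0.174) and Nkx2-2 (0.429), and Npy to Pax4 (0.316) and Neurod1 (0.531).

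Markers of cells that could carry these peptides outside the islet were also read. Npy is abundant in sympathetic and enteric neurons: of 7 neural crest and enteric neuron genes, Dbh and Prph had no read in either library, Sox10 had 0 and 5 reads, and 3 reached 1 CPM in both. The highest were Ret at 226 and 105 CPM and Th at 31.6 and 19.0 CPM, and the list summed to 267 and 127 CPM. Ghrl, Pyy and Sst are also made by endocrine cells of the gut and stomach: of 6 gut genes measured, Cdx1, Fabp2 and Sox2 had no read, Cdx2 had 0 and 21 reads, Vil1 was at 61.7 and 41.3 CPM, and the list summed to 65.2 and 45.2 CPM, most of it Vil1. Both sums were lower in replicate 2, as was Pyy, while Ghrl, Sst and Cdx2 were higher there and Npy was at 72.5 CPM against 70.3. The part of such cells in the levels was not tested.

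Other cell types were present at levels that differed between the libraries. All 8 endocrine markers reached 1 CPM, summing to 10083 and 10033 CPM, of which Chgb, the chromogranin B gene of secretory granules, made up 5381 and 5786. Ductal markers summed to 674 and 620 CPM with 6 of 8 at 1 CPM or more in each library, led by the keratin gene Krt7 at 204 and 246 CPM and by Muc1 at 189 and 146. Acinar markers summed to 1594 and 1197 CPM with 5 of 7, led by the chymotrypsinogen gene Ctrb1 at 1321 and 986 CPM and the carboxypeptidase gene Cpa1 at 203 and 182. Of 9 mesenchymal markers 8 reached 1 CPM in replicate 1 and 5 in replicate 2, and their sum was 360 and 101 CPM, led by the collagen genes Col1a2 at 122 and 47.0 CPM and Col1a1 at 77.2 and 27.5. For 7 immune markers the sum was 56.8 and 12.3 CPM, with Laptm5 and Cd68 at 1 CPM or more in each, and for 6 erythroid markers 0.241 and 2.89 CPM. Apart from the erythroid one these sums were higher in replicate 1, as Pyy and Hhex were, though the endocrine sums were nearly equal. Single markers went the other way, among them Chgb, Krt7, the acinar Cela1 (70 and 181 reads) and the mesenchymal Barx1 (0 and 58 reads). The part of such cells in the Pyy and Hhex differences was not tested.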

How the data were processed

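The authors deposited a file of raw read counts by gene symbol for each sample. Per the submitters' processing notes, the build was mm9 and the tools included TopHat2 2.0.4 and Cufflinks 2.0.2, next to FastQC, cutadapt and DESeq, with no role given for any. What counted the reads, on which annotation and strand, and what was done with reads of several matches is not given in the sources used here. Counts were scaled to CPM with TMM factors (0.996 and 1.004) from edgeR 4.0.16 in R 4.3.3. Exon lengths came from the basic transcripts of GENCODE M21, on GRCm38, which matched 98.0% of symbols; no gene coordinates were taken across builds. The test of reads between libraries was an exact binomial test (SciPy 1.17.1) on TMM-scaled library sizes for genes with at least 10 reads, with Benjamini-Hochberg adjustment at 0.05. It was tried on simulated Poisson counts with known changes and no other spread between libraries. That trial does not cover libraries that differ as widely as these. Log2 ratios used a prior count of 2. A count of 0 was taken to allow 3 counts, which covers counting error only. PCR copies without molecular identifiers are counted as reads. With 1 group, no test of a condition was possible.

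The 6 genes and all gene lists were chosen with earlier results of these data known. Named were the 6 genes; of each related list the 4 highest per kb, receptors with at least 10 reads, Mboat4 and Dpp4; and the genes nearest in level. Of each marker list up to 2 genes highest in CPM were to be named. Genes with no read, Isl1, Pax4, Mafa, Cort and further markers were named for their role or after their values were seen. Single genes of the lists that the rule would name are not reported here. Alternatives were plain totals, DESeq2 1.42.0 size factors, Rn45s or the 10 most abundant genes left out of the totals, other lengths, other filters and detection limits, and each replicate left out.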

Additional observations from a re-analysis of the deposited data

How the results depend on the processing

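Of 153 values under alternatives, 130 kept their direction and side of the threshold, or, with no test, stayed within the replicate SD or, for counts, within 1.5 times. With 2 libraries, any level, log2 ratio of 2 genes or share from 1 library lies within the replicate SD by construction. The values with a replicate left out are therefore no test of those results. Count filters change the adjusted p but not the log2 ratio between libraries. Among the 130 was the detection count at a limit of 100 CPM, where 4 of the 6 genes were detected in both libraries. With the 10 most abundant genes left out of the totals the mean level was 1815 CPM for Ghrl, 3074 for Pyy, 182 for Ppy and 82.0 for Npy; with Rn45s left out it was 166 for Ppy and 74.8 for Npy. The calls of the 6 genes between libraries were the same 4 under each scaling and count filter run, and 0 when a 2-fold difference was also required. Without a length correction the log2 ratio was 0.76 for Pyy over Ghrl, 1.19 for Ghrl over Sst, 2.11 for Sst over Ppy, 1.15 for Ppy over Npy and -0.55 for Npy over Hhex, the 1 step that turned. With the full annotation it was 0.61 for Ghrl over Sst and 2.61 for Npy over Hhex, whose exons are then longer, and with the longest coding transcript 0.89 for Ghrl over Sst. Per kb of exon the share of hormone reads was 10.1% for Pyy, 2.19% for Sst, 0.740% for Ppy and 0.293% for Npy, and the share of NPY family reads 90.6% for Pyy and 6.74% for Ppy. The number of receptors detected was 1 at a limit of 5 CPM and 2 to 4 with each replicate left out in turn, the 4 being without replicate 1. Differences between libraries cannot be computed with a replicate left out. With 2 libraries and 1 group, no paired analysis applies, and levels of genes below 100 CPM rest on libraries that were often over 2-fold apart.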
